A study of Caenorhabditis elegans with 2 samples.

Results

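Major sperm protein (msp) genes were taken as every row of the deposited gene table whose symbol is msp followed by a number, which gave 35 of the 46233 genes listed. Whole-animal total RNA of Caenorhabditis elegans was sequenced in 2 libraries, 1 per genotype. The first came from wild type animals (strain N2) and the second from strain VC2324, a mutant of flp-6, which encodes FMRFamide-like neuropeptides. Both were labelled as fourth-stage (L4) larvae and grown at 25 °C, with no other allele or agent named and no description of the flp-6 lesion. Levels are the authors' FPKM, fragments per gene divided by transcript length and by the size of the library. With 1 library per genotype there is no spread between animals or cultures, no test was made, and every difference below is one between 2 libraries.

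Nematode sperm have no flagellum. They crawl on a pseudopod whose cytoskeleton is built from major sperm protein, a small protein that assembles into filaments without actin. The same protein is released by sperm as a signal, to which oocytes respond by resuming meiosis and the gonadal sheath by contracting. In hermaphrodites sperm are made late in larval life, before the germ line switches to oocytes, so that msp transcripts mark a limited window of germ line development. The many msp genes lie in clusters on chromosomes II and IV among other genes used in sperm.

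The flp-6 gene itself was listed at 4.40 FPKM in the mutant against 58.0 FPKM in N2. The column totals over all genes were 989473 FPKM for the mutant and 1414572 FPKM for N2. Read depth is unknown: a whole number of reads, to within 0.1, accounted for 24.7% of low mutant values and 25.0% of low N2 values, and chance alone gives 20%, so that counts could not be recovered. Yolk and oocyte transcripts, which are abundant in adults, were present in both libraries labelled L4, with vit-2 at 2942 FPKM in the mutant library and 4468 FPKM in N2. Because RNA came from whole animals, more sperm-forming cells and more msp RNA per cell cannot be told apart.

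All 35 identifiers were found in the Ensembl annotation of WBcel235, the build named in the submitters' processing notes. Of the genes, 31 were listed as protein-coding and 4 as pseudogenes (msp-37, msp-42, msp-52 and msp-71). Each of the 35 has a single exon, and 28 have the same annotated coding length of 384 nt. The locus field of such genes, where no other gene overlapped them, spanned 415 to 513 nt with a median of 455 nt, so that the deposited gene models extend past the coding part. The annotated coding parts are of equal length and the copies are known to be nearly identical in sequence. The labels do not state how the authors' counting divided reads between copies, so the value of any 1 copy is uncertain. A sum over the copies is less tied to that division but not free of it, since FPKM divides reads by a model length that differs between copies.

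Summed over the family, msp transcripts were at 1762 FPKM in the mutant library and 790.3 FPKM in the N2 library, a ratio of 2.23. As a share of all FPKM they took 0.178% of the mutant library and 0.0559% of N2, a ratio of 3.19, because the mutant column has the lower total. Of the 35 genes, 30 were listed higher in the mutant library, 3 lower and 2 at 0.0001 FPKM in both, the value that stands in place of 0 in the table. Of all listed genes, most of which are at 0.0001, 18.7% were higher in the mutant library, and of the genes with a mean of 1 FPKM or more 44.3% were. The 3 lower genes were all near the floor of the table: msp-32 at 0.0322 against 0.128 FPKM, msp-79 at 0.252 against 0.329 FPKM and msp-74 at 1.05 against 1.11 FPKM. No member above 2 FPKM in either library was lower in the mutant.

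A mean of at least 1 FPKM over both libraries was required for a gene to count as measured, and 28 of the 35 msp genes met it. One of them, the pseudogene msp-71, met it through the mutant library alone. The difference given for a gene is log2((mutant FPKM + 1)/(N2 FPKM + 1)). Low genes have their change understated on this scale. By this measure 17 of the 28 were higher by 2-fold or more in the mutant and 0 were lower by 2-fold or more. Without msp-71, which is listed at 0.0001 FPKM in N2, 16 of 27 were. Over all 13436 measured genes, 10.5% were higher by 2-fold or more and 11.3% lower by 2-fold or more. The median difference was 1.19 for the msp genes and -0.10 for all measured genes. Around the 2-fold line, msp-49 lay just inside at 1.04 and msp-65 just outside at 0.98, although its FPKM ratio was 2.30, since the added 1 FPKM weighs on low genes. None of the 28 reached a 4-fold difference, against 1.62% of all measured genes that were higher by 4-fold or more.

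**Figure D1:**
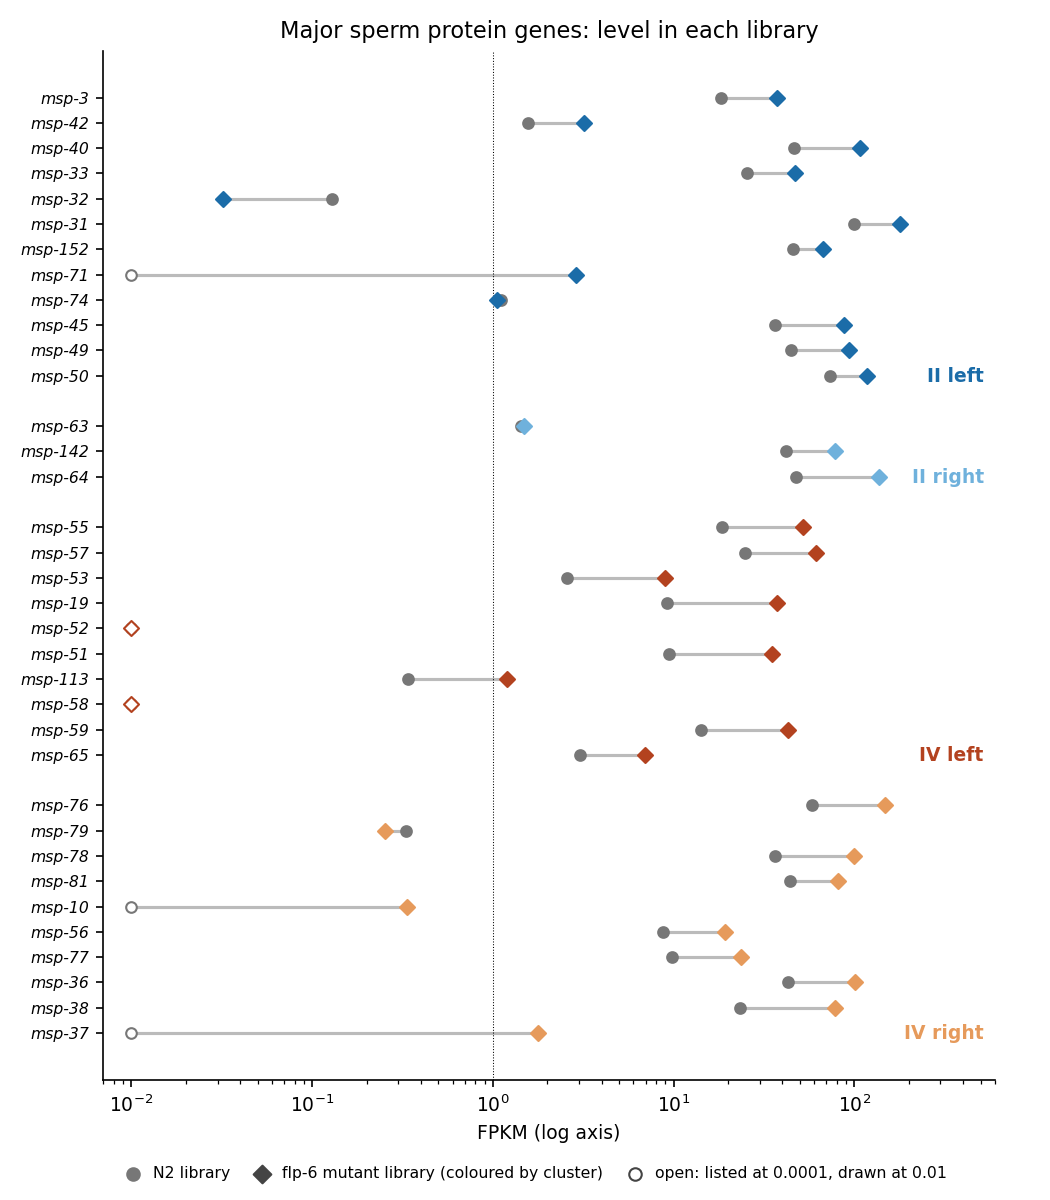
FPKM of each of the 35 msp genes (log axis) in the N2 library (circles) and the flp-6 mutant library (diamonds), grouped by genomic cluster in the order of the genes along the chromosome; open symbols are values listed at 0.0001, drawn at 0.01, and the dotted line is 1 FPKM. Lines run to the right, from N2 to the mutant, for 30 of the 35 genes, and 11 genes lie under 5 FPKM in both libraries.

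The most abundant copies carried much of the signal, and the order of the copies was alike in both libraries. The highest was msp-31, at 179 FPKM in the mutant library and 99.2 FPKM in N2. It was followed by msp-76, with 148 FPKM in the mutant library and 58.4 in N2. The gene msp-50 had 117 and 73.0 FPKM in the same order. These copies were all clearly detected in both libraries and all higher in the mutant. For msp-64 the values were 137.0 FPKM in the mutant library and 47.5 in N2. The msp-40 gene was listed at 108 and 46.5 FPKM, and msp-36 at 101 and 43.2 FPKM. Together these 6 genes held 44.9% of the summed msp level in the mutant and 46.5% in N2, so that their share of the family was about the same.

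Ranked among all listed genes, the highest msp gene stood at place 822 in the mutant library and at place 2095 in N2. In the mutant library 12 msp genes were among the 2000 highest genes, and in N2 0 were. That cut falls close to some members, with msp-38 at place 1992 and msp-142 at place 1998 in the mutant library. Across the 27 members that were measured and above 0.0001 FPKM in both libraries, Pearson's r of log2(FPKM + 1) between the libraries was 0.967 and Spearman's rho of FPKM was 0.956. These points are copies of a single gene family from the same 2 libraries and share reads, so the values only describe how alike the order was. The log2 ratio of a copy had a Spearman's rho of -0.12 with its N2 level over the same 27 copies. The N2 level is also the denominator of that ratio, and with the mean FPKM of both libraries rho was 0.0018. From the lowest to the highest of these 27 copies, levels spanned 171-fold in the mutant library and 89.2-fold in N2.

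The largest log2 differences among measured members above 0.0001 FPKM in both libraries were those of msp-19, msp-51, msp-38 and msp-59. The msp-19 gene, at 37.2 FPKM in the mutant library and 9.16 in N2, had a ratio of 4.06. For msp-51, at 35.2 and 9.48 FPKM, the ratio was 3.71. The ratio was 3.36 for msp-38, at 78.6 and 23.4 FPKM, and 3.02 for msp-59, at 42.9 and 14.2 FPKM. All 4 lie on chromosome IV, as do msp-53 and msp-113, whose ratios of 3.47 and 3.51 rest on lower levels of 8.92 against 2.57 FPKM and 1.19 against 0.339 FPKM. The smallest differences were those of msp-74 and msp-63, both near 1 FPKM, and of msp-152 and msp-50, 2 abundant copies. The msp-63 gene had 1.48 FPKM in the mutant library and 1.43 in N2, and msp-152 at 67.1 and 45.9 FPKM, a ratio of 1.46. All 4 of these lie on chromosome II.

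In the authors' deposited table, 2 of the 35 members had a p-value under 0.05 and 0 had a q-value under 0.05. The lower of these p-values in the authors' deposited table was 0.00135 for msp-71, with a q-value of 0.431, and the other was 0.0489 for msp-19, with a q-value of 0.951. No gene of the whole table had a q-value under 0.05 there, the lowest being 0.112. Those values come from a comparison of 1 library with the other.

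Pseudogene copies were low. The msp-42 pseudogene had 3.18 FPKM in the mutant library and 1.57 in N2, and msp-71 had 2.88 FPKM in the mutant library and was listed at 0.0001 in N2. The msp-37 pseudogene had 1.78 FPKM in the mutant library and 0.0001 in N2, and msp-52 was at 0.0001 in both. No fold is given against a value listed at 0.0001. Of the protein-coding copies, msp-58 was listed at 0.0001 FPKM in both libraries, and msp-10 at 0.334 FPKM in the mutant library and 0.0001 in N2. The msp-113 gene, at 1.19 and 0.339 FPKM, also fell below the mean of 1 FPKM. In all, 3 members were listed at 0.0001 in N2 alone and 0 in the mutant library alone.

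The msp genes fell into 4 clusters when neighbours less than 250 kb apart were joined. On chromosome II, 12 genes lay between 4785898 and 5200180 (called II left) and 3 between 5797065 and 5810330 (II right). On chromosome IV, 10 genes lay between 5055631 and 5316906 (IV left) and 10 between 9689015 and 10144175 (IV right). All 4 clusters were higher in the mutant library, by different amounts. The summed level was 744 FPKM in the mutant library and 393 FPKM in N2 for II left, a ratio of 1.90. For II right it was 217 and 90.9 FPKM, a ratio of 2.38. For IV right it was 554 and 225 FPKM, a ratio of 2.47. The IV left cluster had the lowest sum in N2 and the largest ratio, with 246 FPKM in the mutant library and 82.1 FPKM in N2, a ratio of 2.998.

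The II left and IV left clusters barely overlapped in the ratios of their genes. In II left the 10 measured members above 0.0001 in both libraries had ratios of 0.946 to 2.42 with a median of 1.93, and 4 of its 11 measured members, were higher by 2-fold or more, or 3 of 10 without msp-71. In IV left the 7 measured members had ratios of 2.30 to 4.06 with a median of 3.02, and 6 of 7 were higher by 2-fold or more. In IV right 6 of 7 were higher by 2-fold or more as well, with ratios of 1.84 to 3.36. By chromosome, 5 of 14 measured members on II (4 of 13 without msp-71) and 12 of 14 on IV were higher by 2-fold or more, and the median ratios were 1.87 and 2.64. Other protein-coding genes of these chromosomes were higher by 2-fold or more in 10.4% of cases on II and in 14.4% on IV. The contrast in counts was smaller after the median of genes of like length was subtracted, as described below. Then 8 of 10 members of II left and 2 of 3 of II right were higher by 2-fold or more. In IV left and IV right it was 7 of 7 each, against 10.9% of all genes treated in this way. Scaling a whole library moves all ratios alike and keeps the order of the clusters, but the counts at 2-fold change with it. Measured members of IV left had a median level of 9.48 FPKM in N2, against 36.4 FPKM in II left. Copies of 1 cluster are not replicates, and this difference has no test.

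**Figure D2:**
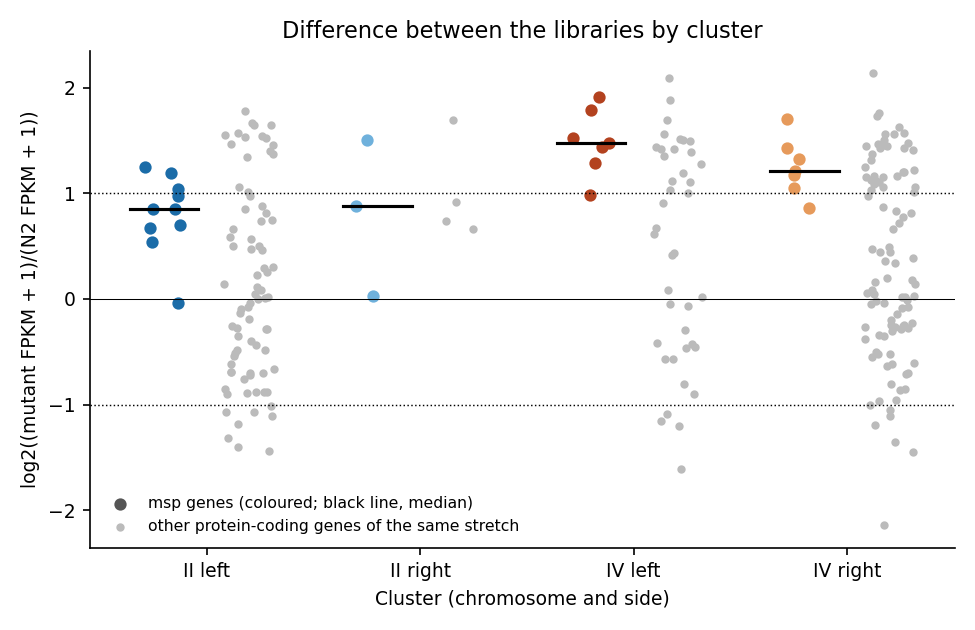
Log2 difference of msp genes (coloured, with the median as a black line) and of other measured protein-coding genes between the outermost msp genes of each cluster (grey, without genes that overlap an msp gene); members at 0.0001 FPKM in either library are left out and dotted lines mark 2-fold. In IV left the msp genes lie from 0.98 to 1.91, and in II left from -0.04 to 1.25, while the grey points spread to both sides of 0 in the 3 large clusters.

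Copies that lie side by side often had very unequal levels. Within 10 kb there were 14 pairs of adjacent msp genes, 9 of them divergent, 2 convergent and 3 on the same strand. The divergent copies msp-63 and msp-142 are 478 nt apart, and msp-142 had 78.3 FPKM in the mutant library and 41.9 in N2, where msp-63 had 1.48 and 1.43 FPKM. The divergent pair msp-79 and msp-78, 2891 nt apart, was at 0.252 and 100.3 FPKM in the mutant and at 0.329 and 36.5 FPKM in N2. In the pair msp-51 and msp-113, 2621 nt apart, the level of msp-51 was 29.6 times that of msp-113 in the mutant library and 28.0 times in N2. By contrast, msp-55 and msp-57, 6563 nt apart and divergent, had similar levels of 52.1 and 61.8 FPKM in the mutant library and 18.6 and 24.8 FPKM in N2. The division of shared reads between such neighbours was not tested.

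Some msp genes sit inside other genes, which gives a comparison within the same stretch of DNA. The msp-38 gene lies on the reverse strand in an intron of dhs-12, a gene named as a short-chain dehydrogenase. While msp-38 was higher in the mutant library with a log2 difference of 1.70, its host was lower, at 52.6 FPKM in the mutant library and 159.6 FPKM in N2, a log2 difference of -1.58. The msp-37 pseudogene overlaps an exon of dhs-12 on the same strand. The most abundant copy, msp-31, lies in an intron of aagr-2, a relative of acid alpha-glucosidase on the same strand, with a log2 difference of 0.85 against -0.13 for its host at 136 and 149 FPKM. The msp-33 gene lies in an intron of the glutathione S-transferase gene gst-9, which had 4.98 FPKM in the mutant library and 3.27 in N2. The msp-45 gene lies in an intron of the chemoreceptor gene srb-13, which was under 1 FPKM in both. For msp-31, msp-33 and msp-45 the deposited locus field is the same as that of the host. Whether counting used the strand is not stated in the labels, so reads of such overlapping genes may not have been fully separated.

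Other genes near the msp genes were also often higher, though not to the same degree in each cluster. Genes beyond the outermost msp genes of a cluster were not counted. Inside these bounds and within 10 kb of an msp gene, 84 other protein-coding genes were measured. Of them 35 were higher by 2-fold or more in the mutant and 8 lower by 2-fold or more, with a median log2 difference of 0.67. Of the 140 measured genes of the same clusters that lay farther away, 34 were higher by 2-fold or more and 12 lower by 2-fold or more, with a median of 0.02. Among all other protein-coding genes 9.59% were higher by 2-fold or more. The share near msp genes was largest in IV left, where 11 of 14 such neighbours were higher by 2-fold or more, and smaller in II left, where 10 of 35 were. The median log2 difference of these neighbours was 1.40 in IV left and 0.83 over the 4 of II right. It was 0.16 over the 31 of IV right and 0.0046 in II left, so the pooled median was not shared by the clusters with most neighbours. Only 4 of the 84 belong to the sperm gene lists used below: sss-1 at 156 against 57.4 FPKM, ssp-10 at 143 against 51.5 FPKM, nspd-2 at 181 against 80.7 FPKM and ssp-36 at 2.27 against 0.542 FPKM. Without these, 31 of 80 were higher by 2-fold or more. The lists were set by gene symbol, so neighbours that carry only a sequence name could not be in them. The 80 may therefore include other genes used in sperm, which was not tested. The filter on the mean admits genes that are high in the mutant library alone: 10 of the 35 higher neighbours were under 1 FPKM in N2, including 4 of the 11 in IV left and 5 of the 13 in IV right. The same held for 6 of the 34 higher genes farther away and for 314 of the 1211 higher ones among all other protein-coding genes. Among neighbours that were lower, cav-1, a caveolin gene 2080 nt from the nearest msp gene, was at 10.4 FPKM in the mutant library and 49.2 FPKM in N2.

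**Figure D3:**
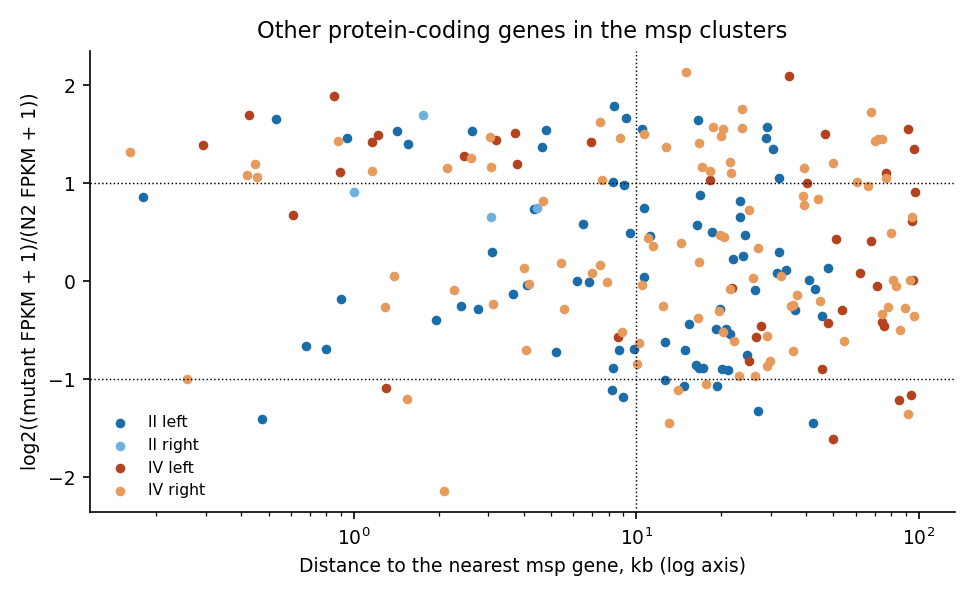
Log2 difference of the other measured protein-coding genes in the 4 clusters against their distance to the nearest msp gene in kb (log axis); horizontal dotted lines mark 2-fold and the vertical one 10 kb, and genes that overlap an msp gene are left out. Points above the upper line are more frequent to the left of 10 kb (35 of 84 measured genes with the 3 overlapping ones included, against 34 of 140 to the right), and points near or below 0 occur at all distances.

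Transcript length moved with the difference between these libraries, and msp genes went against that trend. Short genes were mostly lower in the mutant library: of 294 other measured protein-coding genes whose longest annotated transcript has 350 to 420 nt, 28.2% were lower by 2-fold or more and 12.2% higher by 2-fold or more, with a median log2 difference of -0.55. After the median of genes of like length was subtracted, 24 of 27 msp genes were higher by 2-fold or more, against 10.9% of all 12999 genes centred in this way, and the msp median was 1.52. None of the 27 was lower by 2-fold or more after centring, where 3.15% of all genes were. The part of the length trend in single msp values was not tested.

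**Figure D4:**
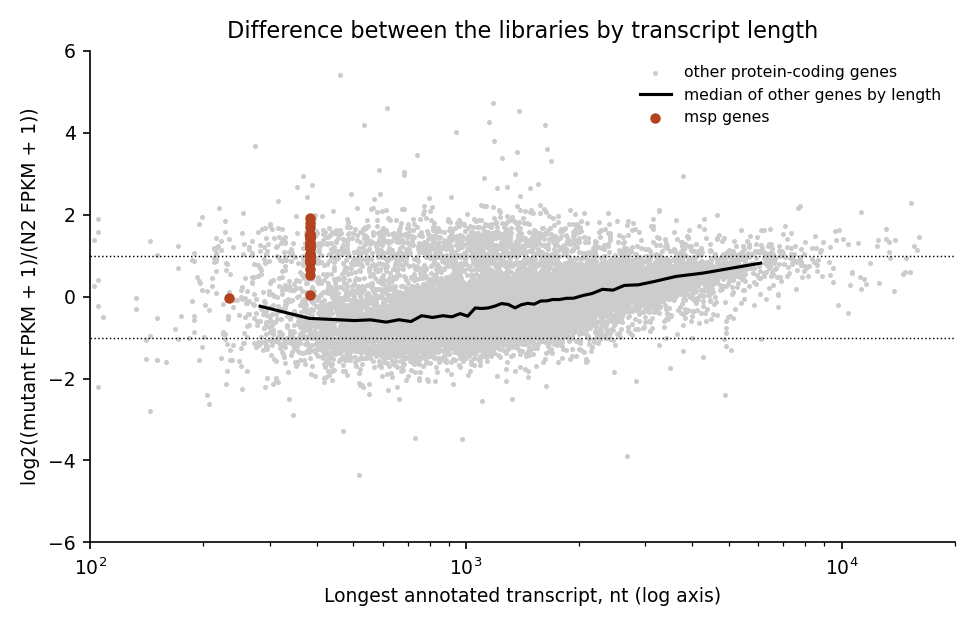
Log2 difference of each protein-coding gene measured and above 0.0001 FPKM in both libraries against the length of its longest annotated transcript in nt (log axis); grey, other genes; black line, their median in 40 length groups of equal size; red, 26 msp genes; dotted lines, 2-fold. The msp genes of 384 nt lie above the median line of genes of their length, which is below 0 there.

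Genes related to msp by sequence domain or role in sperm were higher in many cases, to be read against the 10.5% of all measured genes that were higher by 2-fold or more and the 11.3% that were lower. Among msd and ssp genes, which encode small proteins with an MSP-like domain, 6 of 13 measured members were higher by 2-fold or more and 0 lower, with a median of 0.98. Of the 6, ssp-9 and ssp-36 were under 1 FPKM in N2 and counted as measured through the mutant library alone. Of these ssp-34 had 56.3 FPKM in the mutant library and 17.4 in N2, ssp-10 the values given above, ssp-35 61.2 and 22.3 FPKM, and ssp-9 2.13 and 0.234 FPKM. The most abundant of them, msd-4, was at 241 and 143 FPKM. Only 4 of the 9 genes listed for motility and assembly of the MSP cytoskeleton matched a symbol in the table, and 3 of the 4 were higher by 2-fold or more. They were the sperm protein phosphatases gsp-3, at 48.8 against 14.6 FPKM, and gsp-4, at 33.1 against 11.2 FPKM, and the sperm-supplied factor spe-11, at 27.2 against 9.11 FPKM. The place of spe-11 in this list is the least certain. The kinase spe-6, needed for MSP assembly in spermatocytes, was at 7.51 against 4.77 FPKM. In the list of other sperm genes 21 of 35 measured members were higher by 2-fold or more and 0 lower. Their median was 1.11, and the largest difference was that of sss-2, at 80.0 against 16.9 FPKM. The remaining 14 lay within 2-fold, 3 of the 35 had the lower value in the mutant, and 2 of the 21 were under 1 FPKM in N2. The genes spe-6 and spe-11 above, and spe-44 of the regulators below, are also in this list and are counted again in it. The calcium channel gene spe-41 had 7.58 against 1.57 FPKM, and ssq-2 had 29.4 against 8.56 FPKM.

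Genes listed as regulators of spermatogenesis mostly lay within 2-fold. Of the 7 genes 1 was higher by 2-fold or more and 0 lower, with a median of 0.50. The median was 0.23 after length centring, 0.29 with a pseudocount of 5 and 0.97 with both libraries rescaled to the same FPKM sum. That gene was fog-3, which directs germ cells to the sperm fate, at 4.21 FPKM in the mutant library and 1.58 FPKM in N2. Its partner in that role, fog-1, was at 9.06 and 7.18 FPKM. The transcription factor spe-44, which promotes expression of msp and other sperm genes, was at 15.6 FPKM in the mutant library and 18.7 FPKM in N2, a log2 difference of -0.25. The GATA factor elt-1 was at 5.21 and 4.74 FPKM. The homeobox gene ceh-48, whose place in this list is the least certain, had 2.31 and 0.982 FPKM, cpb-1, an RNA-binding protein of spermatogenesis, 32.2 and 22.1 FPKM, and the sex determination factor tra-1 9.74 and 6.60 FPKM.

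Genes through which oocytes and sheath cells respond to MSP did not shift together. Of 16 measured members 0 were higher by 2-fold or more and 0 lower, with a median of 0.10, which became -0.15 after length centring. With both libraries rescaled to the same FPKM sum it was 0.52, and the median of all measured genes was then 0.35. The Eph receptor vab-1, a receptor for MSP on oocytes, was at 29.7 FPKM in the mutant library and 17.1 in N2. The ephrin gene efn-3 was at 4.57 and 9.59 FPKM, the RNA-binding protein puf-8 at 86.4 and 134 FPKM, and the innexin inx-14, a gap junction protein of the germ line, at 108 and 167 FPKM. Gene levels do not tell whether the signal itself was sent or received.

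Markers of other cell types were compared in the same libraries. Of 10 listed male somatic genes, 9 had a mean under 1 FPKM, lov-1 and dmd-3 were at 0.0001 in both libraries, and the list summed to 1.49 FPKM in the mutant library and 2.19 FPKM in N2. The only one measured, mab-3, was at 1.39 and 1.15 FPKM. The male neuron gene pkd-2 was at 0.0041 FPKM in the mutant library and 0.00802 in N2. Markers of male soma were thus at or near 0 in both. The 4 genes listed for the gonadal sheath summed to 553 FPKM in the mutant library and 241 FPKM in N2, of which most was unc-54, the body wall muscle myosin, at 393 and 128 FPKM. The more restricted sheath gene lim-7 was at 5.41 and 2.58 FPKM, ceh-18 at 7.58 and 7.17 FPKM, and the filamin gene fln-1 at 147 and 104 FPKM.

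Of later products of the reproductive programme, the vitellogenins were lower in the mutant library and more oocyte genes were higher than lower. All 6 vitellogenins, yolk proteins of the adult intestine, were lower in the mutant library, with a summed level of 8890.3 FPKM against 14875 FPKM in N2, and 3 of 6 were lower by 2-fold or more, led by vit-1 at 704 against 1736 FPKM. Their median log2 difference was -0.96, and it was -1.77 after length centring, with 6 of 6 then lower by 2-fold or more, and -0.44 with both libraries rescaled to the same FPKM sum. Vitellogenin vit-3 was at 357 against 824 FPKM, vit-5 at 1340.0 against 2732 FPKM and vit-4 at 381 against 706 FPKM. Of the oocyte genes, 10 of 15 were higher and 5 lower by any amount. By 2-fold or more 3 were higher and 1 lower, against 10.5% and 11.3% of all measured genes. Their median was 0.26, against -0.10 for all measured genes. They summed to 3396 FPKM in the mutant library and 2930.4 FPKM in N2. The higher ones were mex-1 at 121 against 45.7 FPKM, mex-5 at 414 against 179 FPKM and cbd-1 at 503 against 221 FPKM. The 1 lower gene was the yolk receptor rme-2, at 136 FPKM in N2 and listed at 0.0001 FPKM in the mutant. Without rme-2 the median was 0.29, and no other oocyte gene was lower by 2-fold or more. With both libraries rescaled to the same FPKM sum, the median of the oocyte genes was 0.77 and that of all measured genes 0.35. The age of the larvae within the L4 stage is not given in the labels, and its part in the msp difference was not tested.

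**Figure D5:**
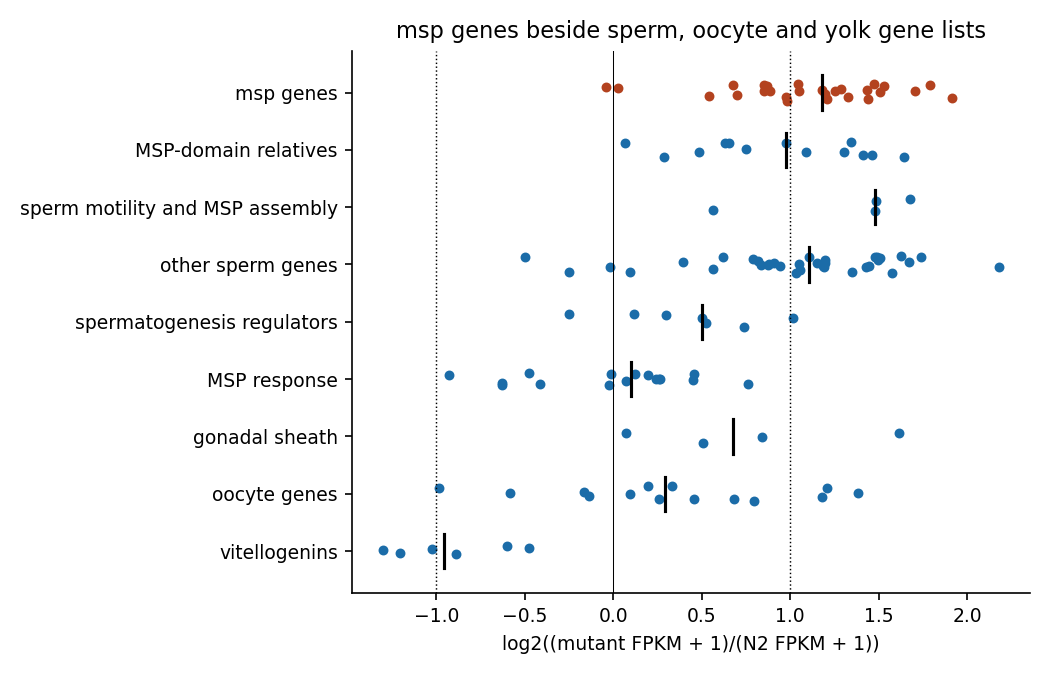
Log2 difference of each measured gene above 0.0001 FPKM in both libraries for msp genes (red) and 8 other gene lists (blue); black bars are medians and dotted lines mark 2-fold. The msp genes and the lists of msp relatives, sperm motility genes and other sperm genes have medians near 1 or above, the MSP response list lies around 0 and the 6 vitellogenins lie below it.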

How the data were processed

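The submitters' processing notes name TopHat, Cufflinks and the build WBcel235 and give no version. Expression is in FPKM, calculated by the authors for each library and stated as such per the file headers, with 0.0001 in place of 0. The deposited ratio and log2 ratio of the authors are mutant over N2 without a pseudocount. The deposited p-value and q-value compare 1 library with the other. The column name f1p6 was read as flp-6, the only mutant among the samples. Coordinates, strands and lengths come from Ensembl release 115 of WBcel235 by gene identifier.

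Computed here were log2 differences with a pseudocount of 1, counts at 2-fold among genes averaging 1 FPKM or more, sums, and differences centred by the median of 40 bins of transcript length. Calculations were tested on simulated data. The members, the 9 gene lists and all rules were chosen with earlier results of these data known. Some genes are in more than 1 list. The 250 kb and 10 kb distances and the 350 to 420 nt window were set after the values were seen. Named members were the 6 highest, the 4 with the largest and 4 with the smallest difference, and those at 0.0001 in 1 library only; each list gave up to 4 genes with the largest differences. Other members, hosts, neighbours and pairs were picked with their values in view, as were fog-1, spe-44, elt-1, vit-2, msd-4, lov-1, dmd-3 and pkd-2. The listed genes mfp-1, mfp-2, mfp-3, mpak-1, spe-7, efn-1, comp-1 and plg-1 had no row under these symbols and were not analysed here, and trp-3 is listed as spe-41. Sequences were not used here, and 1 gene that the naming rule picked is not reported here. Alternatives were a pseudocount of 0.1 or 5, dropping the filter or raising it to 5 FPKM, a 4-fold rule, 3 rescalings, length centring, and leaving out values at 0.0001. Protein-coding genes alone and leaving out overlapped members were further alternatives, chosen after seeing the data. Scripts ran under Python 3.11.15 with pandas 2.3.3 and numpy 2.4.6, and figures were drawn with matplotlib 3.10.9.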

Additional observations from a re-analysis of the deposited data

How the results depend on the processing

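In the 12 alternatives run, 0 msp genes were at least 2-fold lower and the msp median stayed above 0. The count of msp genes at least 2-fold higher went from 17 of 28 to 28 of 30 with both libraries rescaled to the same FPKM sum, and to 0 under the 4-fold rule. In the others it was 12 to 24, with 12 at a pseudocount of 5 and 24 both with the same upper quartile and after centring by length. The median log2 difference of 1.19 became 0.91 with a pseudocount of 5, 1.04 without a filter, 1.69 with the same sum, 1.42 with the same upper quartile, 1.37 with the median of genes of at least 5 FPKM set to 0 and 1.52 after centring by length. Those 3 rescalings brought the ratio of summed levels to 3.19, 2.61 and 2.53, and moved the median of all measured genes from -0.10 to 0.35, 0.10 and 0.08. Over all genes, 1406 were higher and 1523 lower by 2-fold or more as deposited, and 2922 and 437, 1934 and 860, and 1840 and 917 under these rescalings. Length centring turned the median of the MSP response list to -0.15, and dropping the filter turned that of the male somatic list to -0.038; for the first, the cause was not tested, and the second then rests on genes under 1 FPKM. With 1 library per genotype no library could be left out. No paired analysis was possible because each genotype has 1 library. Depth is unknown, so no counting interval can be given for low copies.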
